A study of Mus musculus with 2 samples.

Results

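The genes described here encode the enzymes that take glucose through glycolysis, the pentose phosphate pathway, pyruvate dehydrogenase and the tricarboxylic acid (TCA) cycle, and those that turn exported citrate and malate into cytosolic products. They were taken as a list of 49 genes by name. Of these, 43 reached 20 spliced reads in sum of both libraries and are called measured below, among 8362 measured genes in all. RNA was sequenced from adherent macrophages of male C57BL/6JJcl mice, collected from the peritoneum 3 days after thioglycolate, an irritant that draws in macrophages, and left to adhere for 24 h. The IL-10 library came from cells kept with interleukin 10 (IL-10) at 100 ng/ml for 4 h. The untreated library came from cells without IL-10, as its title says, although its protocol text repeats that of the treated cells. There was 1 library per group, and the labels do not say how many mice or cultures each holds. Ratios therefore set 1 library against another and not the conditions, with no replicate check, and the 95% intervals take in counting error alone.

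IL-10 is a cytokine that limits inflammatory gene expression in macrophages through the transcription factor Stat3. Glycolysis splits glucose into pyruvate and lactate, and macrophages lean on it when they are stimulated by bacterial products. The oxidative arm of the pentose phosphate pathway supplies NADPH, which macrophages spend on lipid synthesis, glutathione and the oxidative burst, and its other arm rearranges sugars. The TCA cycle burns acetyl units in mitochondria and supplies citrate for export.

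The values are reads that cross a splice junction, as deposited per junction. Such reads numbered 3998954 under IL-10, on 109870 junctions, and 4035991 without it, on 110102 junctions. A gene's value was the sum over introns that belong to it alone, and its ratio is IL-10 over untreated after scaling by the total of such reads, 3840179 under IL-10 and 3868523 without. The 7 macrophage markers were all measured, with 59782 summed reads under IL-10 and 76657 without. Of those, 2 had ratios with intervals above 1 (Itgam 1.32 and Fcgr1 1.21) and 4 had intervals below 1 (Lyz2 0.712, Csf1r 0.860, Cd68 0.868 and Mertk 0.863). Lyz2 held most of these reads, with 31849 under IL-10 and 45047 without. The summed level was lower in the IL-10 library, as were the pentose phosphate and TCA sums below, and its part in those results was not tested. Lists of markers of other cells had fewer summed reads. A count of 0 does not show that a gene is absent, since Gapdh, which every cell uses, is also at 0 in both libraries. Of 8 neutrophil markers 6 were at 0 in both libraries, among them S100a8, S100a9 and Ly6g. The other 2 were measured, Csf3r with 311 reads under IL-10 and 267 without and Mmp8 with 231 under IL-10 and 221 without. The list summed to 542 reads under IL-10 and 488 without. B cell markers summed to 37 reads under IL-10 and 43 without, T cell markers to 9 under IL-10 and 1 without, and red cell markers to 0 in both. Eosinophil and mast cell markers summed to 106 reads under IL-10 and 71 without, with Epx, Prg2 and Ccr3 at 0. Of these Siglecf, with 86 reads under IL-10 and 48 without (1.80, 1.254 to 2.63), passed the call rule given below as higher. Fibroblast and mesothelial markers summed to 748 under IL-10 and 733 without, with Col1a1 at 364 under IL-10 and 395 without. In RNA from a whole culture, fewer cells of a type and less RNA per cell cannot be told apart.

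Most of these enzymes differed by less than 1.5-fold between the libraries, with ratios mostly below 1 in the pentose phosphate pathway and the TCA cycle and on both sides of 1 in glycolysis. A gene was called higher or lower where its ratio was at least 1.5 or at most 1/1.5 and the interval excluded 1. One enzyme passed in each direction. Pfkfb3, which makes the allosteric activator of phosphofructokinase, was called higher, against 4.28% of all measured genes. Rpe, an enzyme of the sugar-rearranging arm of the pentose phosphate pathway, was called lower, against 3.99% of all measured genes. Each is 1 of 43 (2.33%), so calls were no more frequent here than among all genes. At 2-fold none passed, against 1.75% higher and 1.49% lower of all genes, and at a fold of 5/4, 3 passed as higher and 6 as lower, against 8.4% and 8.44%. At any fold, 7 enzymes (16.3%) had an interval above 1, against 12.9% of all genes, and 16 (37.2%) had an interval below 1, against 13.1%. Because these are abundant transcripts whose intervals are narrow, genes with at least 500 reads are a closer background. Among 33 enzymes with that many reads, 7 lay above 1 and 13 below 1, against 23.3% above and 22.4% below over 2389 genes. The median log2 ratio of the 43 was -0.13, beside -0.00 over all measured genes and 0.01 over those with at least 500 reads.

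By pathway, 15 of 18 glycolytic genes were measured, with a median log2 ratio of 0.01, 5 intervals above 1 and 1 below. All 7 pentose phosphate genes were measured, all with ratios below 1 and 5 with intervals below 1, and their median was -0.26. Over all measured genes 50.1% had ratios below 1, and over those with at least 500 reads 47.6%. Of 15 TCA genes 14 were measured, 2 with intervals above 1 and 9 below, with a median of -0.22. The pyruvate dehydrogenase group had 5 of 6 measured and a median of -0.21, with 1 interval below 1 and none above. Summed over members, glycolysis took 20432 reads under IL-10 and 18389 without, a ratio of 1.12 (95% interval 1.10 to 1.14). The pentose phosphate genes had 10311 under IL-10 and 12654 without (0.821, 0.800 to 0.843) and the TCA genes 9818 under IL-10 and 10816 without (0.914, 0.890 to 0.940). The pyruvate dehydrogenase group had 1355 under IL-10 and 1448 without (0.943, 0.875 to 1.02), and the citrate and malate export genes had 1307 under IL-10 and 1356 without (0.971, 0.899 to 1.05). The pentose phosphate and TCA sums stayed below 1 on each set of introns shown in the plot of pathway sums, whereas the glycolytic sum did not keep its direction. It stood at 1.23 (1.20 to 1.26) on introns without a copy elsewhere, defined next, and at 0.947 (0.923 to 0.972) on introns other than the most abundant one of each gene. The glycolytic sum above 1 thus rested on the most abundant introns. Those of Pkm, with 4525 reads under IL-10 and 2912 without, and of Aldoa, with 2054 under IL-10 and 1411 without, held the most reads.

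**Figure D1:**
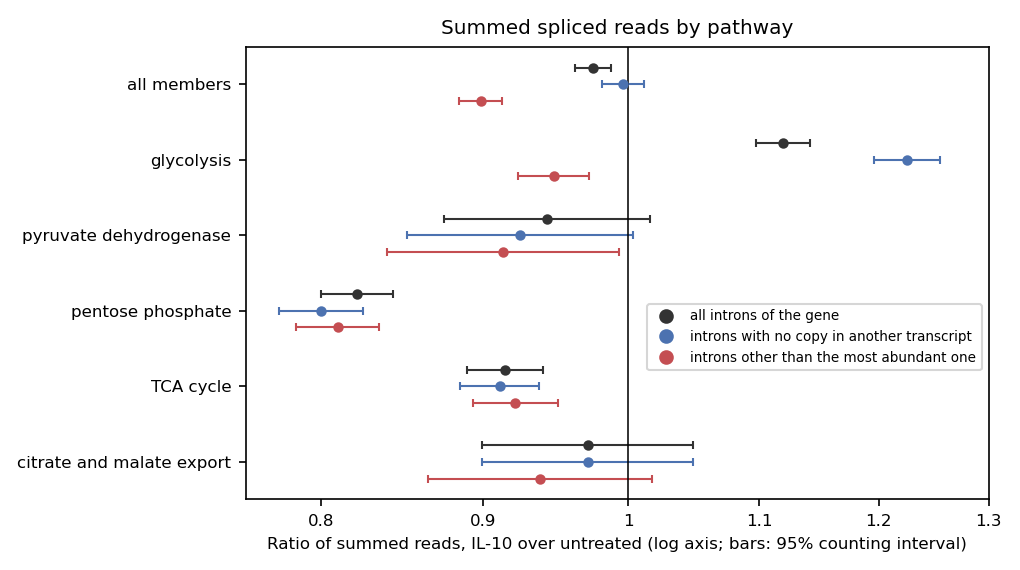
Ratio of summed spliced reads, IL-10 over untreated, for each pathway on a log axis, with 95% counting intervals and 1 library per group. Black points use all introns, blue points introns whose joined exon ends occur in no other transcript, and red points introns other than the most abundant one of each gene. Pentose phosphate and TCA points lie below 1 in all 3 sets, while the glycolytic points run from 0.947 to 1.23.

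A property of some of these genes bears on their values. Several housekeeping enzymes have processed pseudogenes, intronless copies of the spliced transcript elsewhere in the genome, and a read that spans such a junction can also align to the copy without a gap. An intron was termed copied where the 80 bases that join its exons, 40 from each side, aligned over at least 70 bases at 90% identity or more to a transcript of another gene. Of the 49 genes 19 had such an intron, and these include all 6 that were not measured. Pgk1, Pgam1, Suclg2 and Me1 had no matched junction, with 10 of 11, 3 of 4, 10 of 13 and 13 of 17 introns copied. They encode phosphoglycerate kinase, phosphoglycerate mutase, a GTP-forming subunit of succinyl-CoA ligase and cytosolic malic enzyme. Eno1, the enolase, had 6 reads under IL-10 and 7 without, on 15 introns of which 11 are copied. Pdhb, a subunit of pyruvate dehydrogenase, had 3 under IL-10 and 12 without, with 8 of 11 copied. Whether the copies account for the missing reads was not tested. Other genes carried many reads on copied introns, such as Taldo1 with 2052 under IL-10 and 2152 without. Low spliced reads of these 6 genes cannot be read as low expression. Gapdh, a glycolytic enzyme with many pseudogenes that is not in the list, was likewise at 0 in both libraries.

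**Figure D2:**
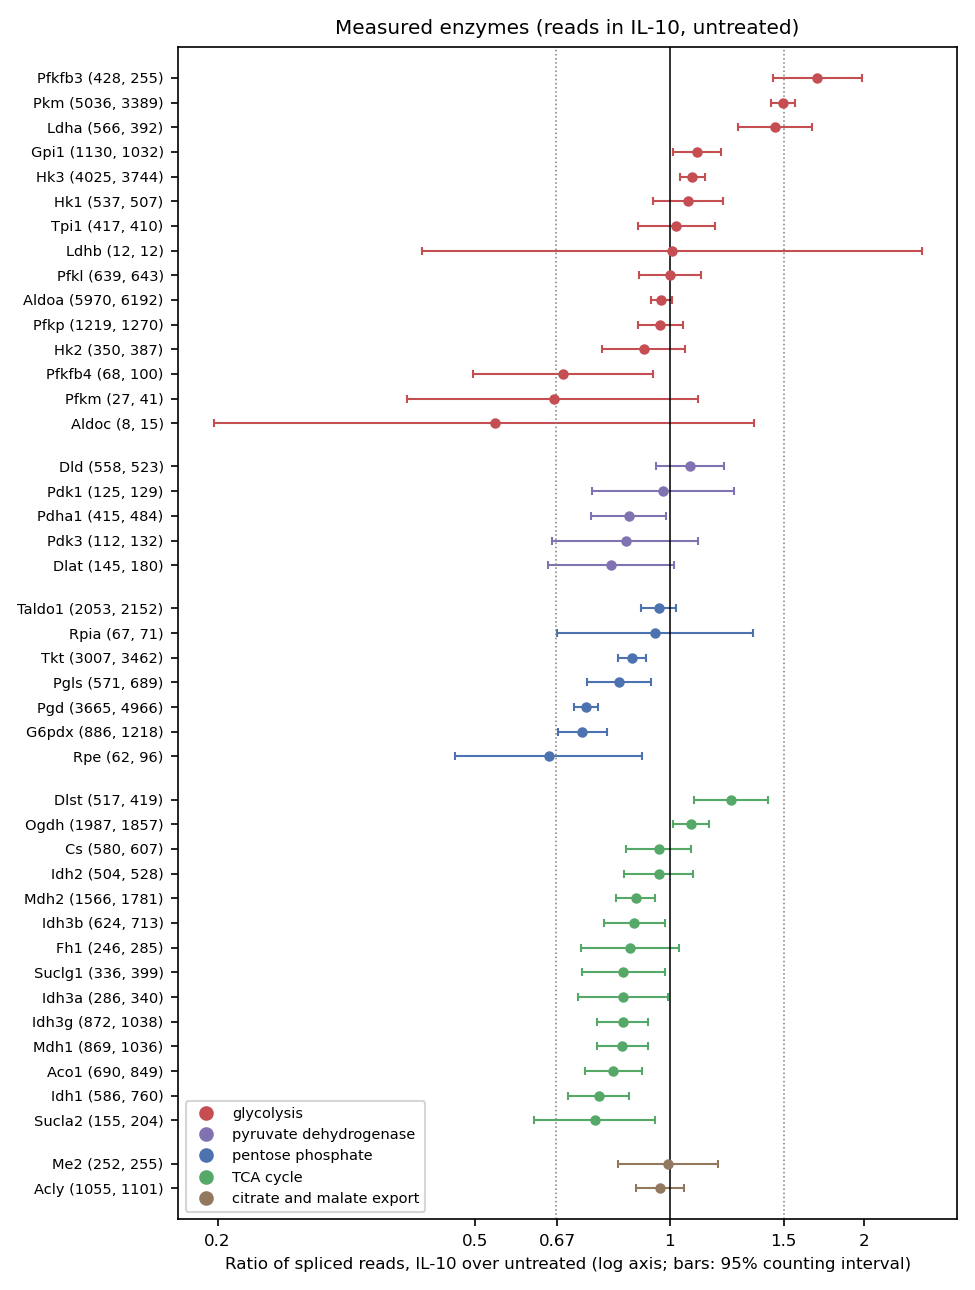
Ratio of spliced reads, IL-10 over untreated, on a log axis for the 43 measured enzymes, with reads in the IL-10 and then the untreated library beside each name, 95% counting intervals and dotted lines at 1.5-fold. Pfkfb3 (1.69) and Rpe (0.651) pass the call rule, Pkm (1.497) and Ldha (1.45) lie just inside the upper line, and all 7 pentose phosphate enzymes lie left of 1.

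At the head of glycolysis, the hexokinases phosphorylate glucose. Hk3, the form found in myeloid cells, had 4025 reads under IL-10 and 3744 without (1.08, 1.04 to 1.13), with 15 of 22 introns of at least 5 reads on the higher side. In such counts an intron with equal reads in both libraries stands at 1.01 after scaling and falls on the higher side. Hk1 had 537 under IL-10 and 507 without (1.07, 0.943 to 1.21), and Hk2, the inducible form, had 350 under IL-10 and 387 without (0.911, 0.786 to 1.06). To compare levels between genes, reads per 1000000 reads of the library (RPM) were taken at each copy-free intron, and the median over introns was used, which takes out their number. On that scale Hk3 stood at 38.3 under IL-10 and 42.9 without. Hk1 stood at 6.51 under IL-10 and 5.43 without, and Hk2 at 3.78 under IL-10 and 4.01 without. Hk3 was thus the most abundant hexokinase in both libraries, and its median intron gave the opposite direction to its sum.

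Glucose-6-phosphate isomerase, Gpi1, had 1130 reads under IL-10 and 1032 without (1.10, 1.01 to 1.20), but 15 of its 24 introns are copied and 3 of 7 introns with at least 5 reads lay above 1. On the others it had 538 under IL-10 and 522 without (1.04, 0.919 to 1.17). The 3 subunits of phosphofructokinase, which commits sugar to glycolysis, did not pass the rule. Pfkl had 639 reads under IL-10 and 643 without (1.001, 0.896 to 1.12), Pfkp 1219 under IL-10 and 1270 without (0.967, 0.893 to 1.05) and the muscle form Pfkm 27 under IL-10 and 41 without (0.663, 0.392 to 1.10). By level per intron Pfkp led, with 9.37 RPM under IL-10 and 10.1 without. Pfkl followed with 5.99 under IL-10 and 7.50 without, and Pfkm stood at 0.260 under IL-10 and 0.258 without.

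Pfkfb3 and Pfkfb4 encode bifunctional enzymes that set the level of fructose 2,6-bisphosphate, the activator of phosphofructokinase. Pfkfb3 had 428 reads under IL-10 and 255 without (1.69, 1.44 to 1.98). None of its introns is copied. Of its 16 introns with at least 5 reads, 14 lay on the higher side, including that with 21 reads in each library. Pfkfb4 lay on the other side, with 68 reads under IL-10 and 100 without (0.685, 0.496 to 0.942), just short of the lower threshold. Per intron Pfkfb3 had 5.73 RPM under IL-10 and 3.88 without, and Pfkfb4 had 1.30 under IL-10 and 1.81 without, so Pfkfb3 was the more abundant of the pair in both libraries.

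Pfkfb3 is known for alternative ends, and its junctions were examined one by one on the minus strand of chromosome 2. Several junctions in the middle of the gene had intervals above 1. The one at chr2:11406490-11407845 (mm9) had 80 reads under IL-10 and 33 without (2.44, 1.61 to 3.78), that at chr2:11405661-11405831 had 61 under IL-10 and 35 without (1.76, 1.14 to 2.74) and that at chr2:11404202-11405555 had 42 under IL-10 and 11 without (3.85, 1.95 to 8.28). The junction at chr2:11403744-11404071 had 30 under IL-10 and 13 without (2.32, 1.18 to 4.86). Between and beside these junctions lay others without such a difference. That at chr2:11410410-11411297 had 21 reads under IL-10 and 21 without (1.01, 0.523 to 1.94), and that at chr2:11405979-11406281 had 12 under IL-10 and 18 without (0.672, 0.295 to 1.47). At the 5′ end, of the annotated junctions that enter the second common exon, only chr2:11415656-11423251 carried reads, with 9 under IL-10 and 0 without. Against a floor of 3 reads this is at least 3.02-fold higher, and the 95% interval of the ratio of 9 to 0 reads starts at 1.99. At the 3′ end an exon of 87 bases, part of the coding sequence in some transcripts, is either included or skipped before the same acceptor. It is shown because it is the variable stretch of the carboxyl terminus that these junctions report on, as read from a GENCODE M21 transcript at chr2:11481247-11481333 (GRCm38, minus strand).
Pfkfb3 short exon: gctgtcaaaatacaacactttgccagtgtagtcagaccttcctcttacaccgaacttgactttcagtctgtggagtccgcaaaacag

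The junction that leaves this exon (chr2:11401999-11402873, mm9) had 31 reads under IL-10 and 16 without (1.95, 1.04 to 3.82). The junction that skips it (chr2:11401999-11403497) had 41 under IL-10 and 32 without (1.29, 0.793 to 2.12). The included share at that acceptor was 43.1% (31.4 to 55.3) of 72 reads under IL-10 and 33.3% (20.4 to 48.4) of 48 without. The difference of 9.72 percentage points had an interval of -9.31 to 27.5, so no shift in the 3′ end was detectable at this depth. The junction into the exon had 2 reads under IL-10 and 3 without, fewer than the junction out of it in both libraries. At the donor before the exon the included share was thus 4.65% (0.568 to 15.8) of 43 reads under IL-10 and 8.57% (1.80 to 23.1) of 35 without. The included share therefore depended on the junction used, and its lean between the libraries differed between donor and acceptor. The last annotated junction with reads (chr2:11396171-11401824) had 9 under IL-10 and 8 without.

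In the later steps of the pathway the ratio depended on the intron. Aldoa, the main aldolase, had 5970 reads under IL-10 and 6192 without (0.971, 0.937 to 1.01). Its most abundant junction, chr7:133941291-133942558 (mm9, minus strand), had 2054 under IL-10 and 1411 without (1.47, 1.37 to 1.57), while the other introns together had 3916 under IL-10 and 4781 without (0.825, 0.791 to 0.861). That junction is copy-free, and all copy-free introns summed to 2382 reads under IL-10 and 1783 without (1.35, 1.27 to 1.43), and the copied introns summed to 3588 under IL-10 and 4409 without (0.820, 0.784 to 0.857). The intervals of these sums exclude 1 on opposite sides. Such a split, of at least 1.5-fold between the top intron and the rest with intervals apart, was found in 4 of 34 enzymes that could be compared (Aldoa, Fh1, Idh3b and Tpi1), and in 4.41% of 2656 genes in all. In the other 3 as well the top intron lay above 1 and the rest below it, at 1.23 and 0.723 for Fh1, 1.249 and 0.825 for Idh3b and 1.32 and 0.867 for Tpi1. Aldoc, a minor aldolase here, had 8 reads under IL-10 and 15 without. Tpi1, triose phosphate isomerase, had 417 under IL-10 and 410 without (1.02, 0.892 to 1.18), all of them on copied introns.

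Pkm encodes pyruvate kinase, which makes pyruvate and ATP. It had 5036 reads under IL-10 and 3389 without (1.497, 1.43 to 1.56), just under the 1.5 of the rule. The junction chr9:59504457-59513006 (mm9, plus strand), the first intron of the common transcript, held 88.3% of these reads, with 4525 under IL-10 and 2912 without (1.57, 1.49 to 1.64). Other introns together gave 1.08 (0.951 to 1.23). The copied introns, with 438 reads under IL-10 and 442 without, gave 0.998 (0.873 to 1.14), and the copy-free introns, with 4598 under IL-10 and 2947 without, gave 1.57 (1.5 to 1.65). On copy-free introns Pkm passed the call rule. Over all genes, the 5′-most matched intron of any transcript had a median log2 ratio of -0.01 where it held at least 100 reads (805 introns). All other introns with that many reads (10287) had a median of 0.01. The first intron of a common transcript can fall among the others where a rarer junction lies 5′ of it. These medians therefore do not describe such introns.

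Ldha, the lactate dehydrogenase subunit that favours lactate formation, had 566 reads under IL-10 and 392 without (1.45, 1.28 to 1.66). Of 7 introns with at least 5 reads 5 were on the higher side. One junction, chr7:54104461-54105547 (mm9), held 460 of these reads under IL-10 and 309 without, although its joined ends occur in 17 pseudogene transcripts. The single copy-free intron with reads had 51 under IL-10 and 38 without (1.35, 0.871 to 2.11), an interval that includes 1. Ldhb, the subunit found in heart, had 12 reads in each library.

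**Figure D3:**
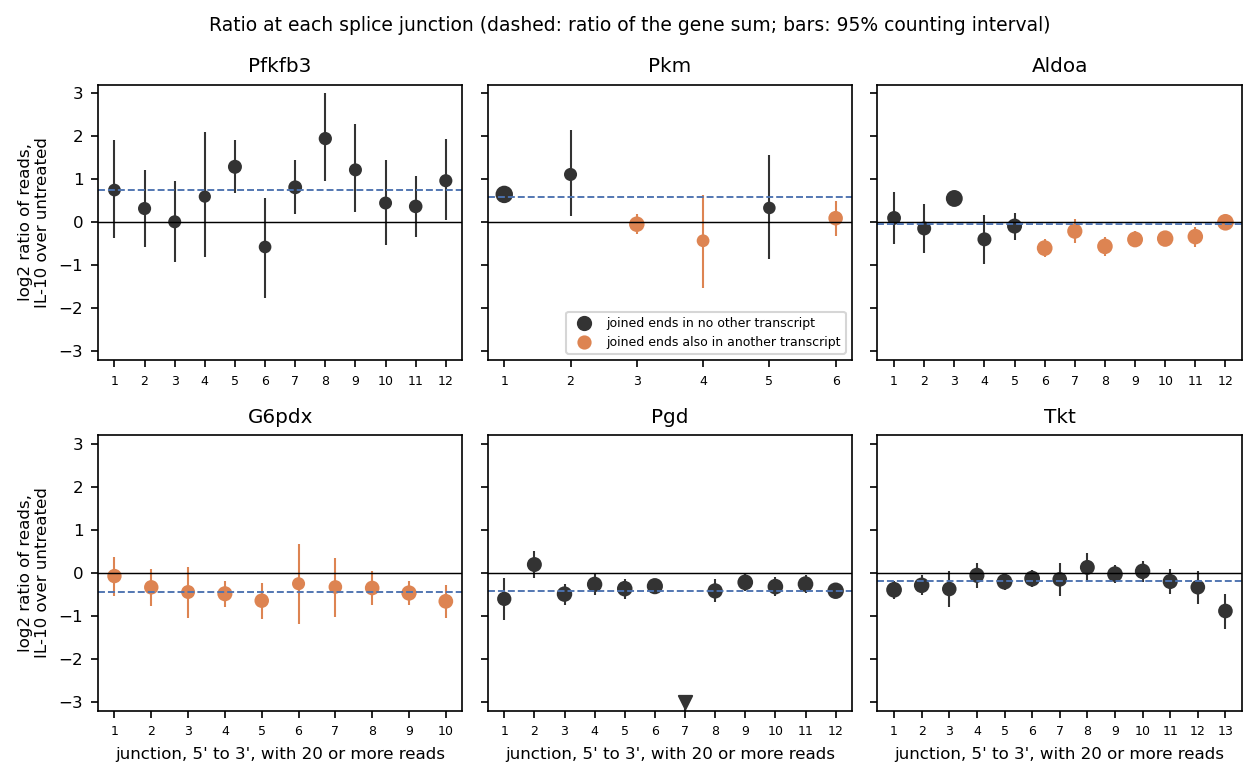
Log2 ratio of reads, IL-10 over untreated, at each junction with at least 20 reads in order 5′ to 3′ for 6 enzymes, with 95% counting intervals. Larger points mark more reads, dashed lines the gene sum, orange points copied junctions, and the triangle a Pgd junction at 0 under IL-10 and 327 without, drawn at the axis limit. Pfkfb3 lies mostly above 0 and all G6pdx points below it, while the copied junctions of Pkm and Aldoa lie below their most abundant junction.

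Pkm transcripts take either exon 9, which gives the M1 enzyme, or exon 10, which gives the M2 enzyme that can switch between active and less active states. Both exons have 167 bases and share 103 positions (61.7%). They are printed to show what separates the junction reads of each form, with capitals at the 64 positions where they differ, from GENCODE M21 transcripts at chr9:59675029-59675195 and chr9:59675568-59675734 (GRCm38, plus strand).
Pkm exon 9: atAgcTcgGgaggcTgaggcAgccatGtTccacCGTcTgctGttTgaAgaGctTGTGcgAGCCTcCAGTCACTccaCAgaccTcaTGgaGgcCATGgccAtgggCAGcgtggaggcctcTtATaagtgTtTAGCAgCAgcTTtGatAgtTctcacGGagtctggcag
Pkm exon 10: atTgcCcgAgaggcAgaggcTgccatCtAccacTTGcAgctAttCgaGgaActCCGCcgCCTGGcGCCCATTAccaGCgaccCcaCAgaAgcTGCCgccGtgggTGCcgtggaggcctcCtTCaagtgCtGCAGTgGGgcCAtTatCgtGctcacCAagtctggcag

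The junction into exon 10 (chr9:59519881-59523374, mm9) had 107 reads under IL-10 and 101 without. The junction into exon 9 (chr9:59519881-59522835) had 15 under IL-10 and 12 without, and that out of exon 9 had 4 under IL-10 and 3 without. The junction out of exon 10 had 0 reads in both libraries. The exon 10 junctions are copied in pseudogene transcripts (8 for the junction into it and 3 for the junction out of it) and those of exon 9 are not, so the exon 10 share can be understated. It came to 84.9% (77.5 to 90.7) of 126 reads under IL-10 and 87.1% (79.6 to 92.6) of 116 reads without. On junctions into the exons alone it was 87.7% under IL-10 and 89.4% without. On junctions out of the exons alone it was 0% of 4 reads (0 to 60.2) under IL-10 and 0% of 3 reads (0 to 70.8) without. The larger share of exon 10 thus rests on the junctions into the exons. A difference between the libraries was not detectable at this depth, at -2.15 percentage points (-11.4 to 7.30) in the share over all 4 junctions.

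Pyruvate dehydrogenase turns pyruvate into acetyl-CoA. Its catalytic subunit gene Pdha1 had 415 reads under IL-10 and 484 without (0.864, 0.756 to 0.987). On copy-free introns it had 177 under IL-10 and 253 without (0.705, 0.578 to 0.857), and on copied introns 238 under IL-10 and 231 without. The transacetylase gene Dlat had 145 under IL-10 and 180 without (0.812, 0.648 to 1.02). Dld, the dehydrogenase subunit that other complexes share, had 558 under IL-10 and 523 without (1.07, 0.952 to 1.21). Of the kinases that switch the complex off, Pdk1 had 125 reads under IL-10 and 129 without (0.976, 0.757 to 1.26) and Pdk3 had 112 under IL-10 and 132 without (0.855, 0.658 to 1.11).

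The pentose phosphate enzymes lay on the lower side as a group. G6pdx, glucose-6-phosphate dehydrogenase, makes the first NADPH of the pathway and sets its rate. It had 886 reads under IL-10 and 1218 without (0.733, 0.671 to 0.800), and all 12 of its introns with at least 5 reads lay below 1. Its joined exon ends occur in the transcript of 1 other gene, so reads may be shared. Pgls, which opens the lactone, had 571 under IL-10 and 689 without (0.835, 0.746 to 0.934). Pgd, which makes the next NADPH, was the most abundant, with 3665 reads under IL-10 and 4966 without (0.743, 0.712 to 0.776), and 11 of 12 introns lay below 1.

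One Pgd junction stood apart. At chr4:148530906-148532069 (mm9, minus strand), the seventh of 12 introns, the deposited lists gave 0 reads under IL-10 and 327 without. The junctions on either side had 612 reads under IL-10 and 764 without (0.807) and 204 reads under IL-10 and 275 without (0.747). Among 11092 introns with at least 100 reads, 2 were at 0 in 1 library, both in the IL-10 library. Without this intron Pgd stood at 0.796 (0.762 to 0.831), still below 1.

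In the arm that rearranges sugars, Rpe, the ribulose-phosphate epimerase, was called lower with 62 reads under IL-10 and 96 without (0.651, 0.465 to 0.905), and all 5 of its introns lay on that side. The interval is wide because reads were few. Rpia, the isomerase that makes ribose 5-phosphate, had 67 under IL-10 and 71 without (0.951, 0.671 to 1.35). Tkt, transketolase, had 3007 under IL-10 and 3462 without (0.875, 0.833 to 0.919) with 11 of 13 introns below 1, and Taldo1, transaldolase, had 2053 under IL-10 and 2152 without (0.961, 0.904 to 1.02). By level per intron, Pgd had 68.6 RPM under IL-10 and 91.8 without, Tkt 48.7 under IL-10 and 53.0 without, and Pgls 37.5 under IL-10 and 42.1 without. Rpe (3.12 under IL-10 and 4.39 without) and Rpia (1.95 under IL-10 and 2.46 without) were far less abundant.

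**Figure D4:**
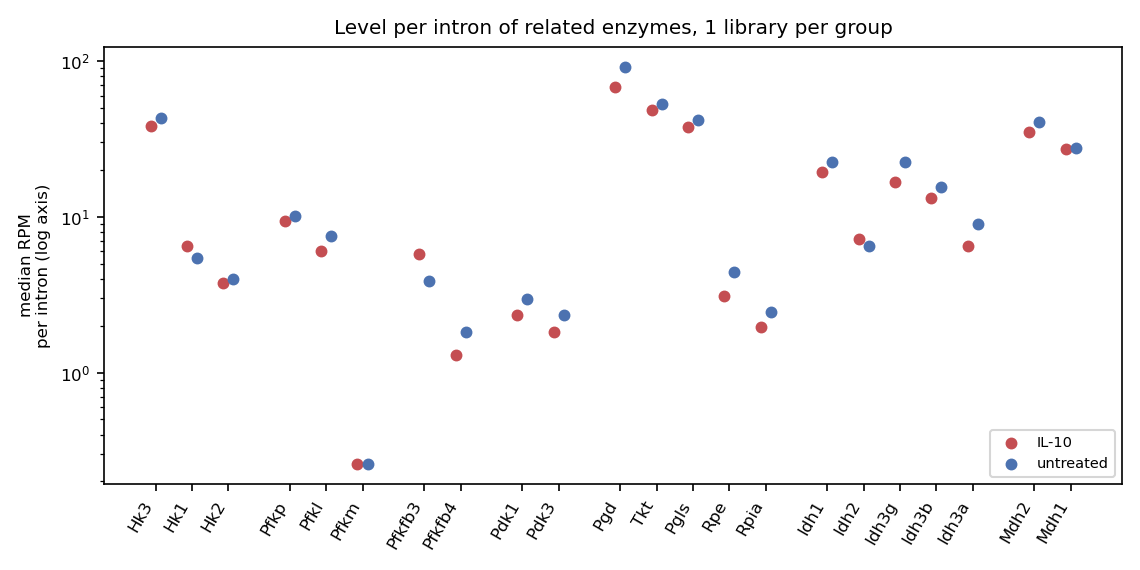
Median RPM per copy-free intron for families of related enzymes on a log axis, with the IL-10 library left of the untreated library, 1 library each. Hk3, Pfkp, Pfkfb3, Pgd and Mdh2 lead their groups in both libraries, from 5.73 for Pfkfb3 to 68.6 for Pgd with IL-10.

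In the TCA cycle, citrate synthase (Cs) had 580 reads under IL-10 and 607 without (0.963, 0.858 to 1.08). The ratios of the isocitrate dehydrogenases ran from 0.777 for Idh1 to 0.962 for Idh2, with intervals that overlap. Idh1, the NADPH-forming enzyme of the cytosol, had 586 under IL-10 and 760 without (0.777, 0.696 to 0.866), and all 8 introns with at least 5 reads lay below 1. Its mitochondrial counterpart Idh2 had 504 under IL-10 and 528 without (0.962, 0.849 to 1.09). The 3 subunits of the NAD-linked enzyme all lay below 1. Idh3a had 286 reads under IL-10 and 340 without (0.847, 0.722 to 0.995), Idh3b 624 under IL-10 and 713 without (0.882, 0.791 to 0.983) and Idh3g 872 under IL-10 and 1038 without (0.846, 0.773 to 0.927). Aco1, the cytosolic aconitase that also acts as an iron sensor, had 690 under IL-10 and 849 without (0.819, 0.739 to 0.906), with 13 of 20 introns below 1.

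Both TCA genes with intervals above 1 encode parts of the next complex, 2-oxoglutarate dehydrogenase. Dlst, its succinyltransferase, had 517 reads under IL-10 and 419 without (1.24, 1.09 to 1.42), with 13 of 14 introns above 1, and Ogdh, its dehydrogenase, had 1987 under IL-10 and 1857 without (1.08, 1.01 to 1.15), with 15 of 24. The 13 introns of Dlst include those with 11 and with 31 reads in each library. Both genes remained under 1.5-fold. Past that step, the ADP-forming succinyl-CoA ligase subunit gene Sucla2 had 155 under IL-10 and 204 without (0.765, 0.617 to 0.948), and Suclg1, the subunit common to both ligases, had 336 under IL-10 and 399 without (0.848, 0.732 to 0.983). Fumarase (Fh1) had 246 under IL-10 and 285 without (0.870, 0.730 to 1.03). The malate dehydrogenases Mdh1 of the cytosol, with 869 reads under IL-10 and 1036 without (0.845, 0.771 to 0.926), and Mdh2 of the mitochondria, with 1566 under IL-10 and 1781 without (0.886, 0.827 to 0.949), both lay below 1. Outside the cycle, Acly, which splits exported citrate into acetyl-CoA, had 1055 under IL-10 and 1101 without (0.965, 0.886 to 1.05), and the mitochondrial malic enzyme Me2 had 252 under IL-10 and 255 without (0.996, 0.833 to 1.19).

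Junction choice within these genes was also compared. At donors and acceptors with at least 20 reads in each library, none of 176 junctions at 71 sites in 25 of the enzyme genes differed by 10 points or more with intervals apart, against 0.204% of 19579 junctions over all genes. The largest difference was at Aldoa, where the junction chr7:133941641-133942558 (mm9) took 86.0% (74.2 to 93.7) of 57 reads at its acceptor with IL-10 and 72.2% (61.8 to 81.1) of 90 without. Ogdh has a pair of exons that exclude each other after a donor at chr11:6213983. The nearer one took 27.8% (19.9 to 37.0) of 115 reads under IL-10 and 19.0% (12.8 to 26.6) of 137 without, and the other one took most reads in both libraries.

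Neighbouring genes of these pathways, listed with earlier results of these data known, gave 3 calls, all lower. Of 30 genes for glucose and lactate transport and side steps, 14 were measured, 0 were called higher and 2 lower (14.3%, against 3.99% of all measured genes), with a median log2 ratio of -0.22. Called lower were Slc2a6, a sugar transporter of lysosomes, with 72 reads under IL-10 and 128 without (0.567, 0.419 to 0.762), and Pck2, mitochondrial phosphoenolpyruvate carboxykinase, with 74 under IL-10 and 121 without (0.616, 0.455 to 0.829). The main glucose transporter gene Slc2a1 had 968 under IL-10 and 784 without (1.24, 1.13 to 1.37). Of 11 glycogen genes 9 were measured and none was called, with a median of -0.09. Of 24 genes for mitochondrial entry and neighbouring steps 16 were measured, 0 were called higher and 1 lower (6.25%), with 6 intervals below 1, 1 above and a median of -0.14. The called gene was Slc25a10, the dicarboxylate carrier, with 175 reads under IL-10 and 308 without (0.572, 0.473 to 0.691). Succinate dehydrogenase subunits Sdha (0.872, 0.805 to 0.944), Sdhb (0.909, 0.833 to 0.992) and Sdhc (0.772, 0.642 to 0.928) lay below 1, and Sdhd (1.42, 1.13 to 1.77) lay above. Acod1, which makes itaconate in activated macrophages, had 33 reads under IL-10 and 30 without (1.11, 0.655 to 1.88).

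Hif1a encodes the transcription factor that drives glycolytic genes under low oxygen and in activated macrophages. It had 993 reads under IL-10 and 681 without (1.47, 1.33 to 1.62), short of the call. Of 13 genes listed with it, its targets outside the enzymes and Hif1a itself, 7 were measured and none was called, with a median log2 ratio of -0.01. Ndrg1 stood at 1.43 (1.23 to 1.67), Ero1l at 0.784 (0.671 to 0.914) and Vegfa at 0.857 (0.689 to 1.06). The promoters of the enzymes were searched for the letters of its binding core, ACGTG, on both strands in the 250 bases before each RefSeq gene start (GRCm38.p6). It occurred in 24 of 68 windows of 47 enzyme genes (35.3%), against 16.6% of 32851 windows of all genes, but 6 of the 24 belong to Ogdh and some of those overlap. By gene it occurred for 16 of 47 (34.0%), against 18.5% of 27025 genes. These shares do not take into account that a gene with more windows has more chances of a match. The background also includes genes that were not measured here. Among enzymes with intervals above 1, Hk3, Pfkfb3, Pkm, Ldha and Ogdh hold ACGTG in a window, and Gpi1 and Dlst do not. Among those with intervals below 1, Mdh1 (0.845) and Idh3g (0.846) hold it, and the others with a window do not. Aldoa (0.971), Acly (0.965), Hk2 (0.911), Pdk3 (0.855) and Pfkm (0.663), whose intervals include 1, hold it too. So do Pgk1, Pgam1, Pdhb and Me1, which were not measured. Whether the motif goes with direction was not tested. Since CACGTG reads the same on both strands, it counts as 2 matches. The STAT motif TTCNNNGAA occurred in 2 of the windows (2.94%), against 7.02% of all, and the antioxidant response core TGACNNNGC in 6 (8.82%), against 10.2%, among them windows of Dlst (1.24) and Idh3g. Windows are shown as examples for Pfkfb3, called higher, with 2 matches to ACGTG, for Ldha (1.45, not called), with 5, and for G6pdx (0.733, not called), with 1 match to TGACNNNGC on the opposite strand. They span chr2:11502091-11502340 (minus strand), chr7:46845554-46845803 (plus strand) and chrX:74428881-74429130 (minus strand), with matches in capitals. A match is a string of letters and no record of binding.
Pfkfb3: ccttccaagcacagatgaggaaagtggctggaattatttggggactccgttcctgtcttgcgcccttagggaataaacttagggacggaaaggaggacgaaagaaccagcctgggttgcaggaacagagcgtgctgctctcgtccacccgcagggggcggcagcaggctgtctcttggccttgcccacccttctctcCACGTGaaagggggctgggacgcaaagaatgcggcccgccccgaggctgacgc
Ldha: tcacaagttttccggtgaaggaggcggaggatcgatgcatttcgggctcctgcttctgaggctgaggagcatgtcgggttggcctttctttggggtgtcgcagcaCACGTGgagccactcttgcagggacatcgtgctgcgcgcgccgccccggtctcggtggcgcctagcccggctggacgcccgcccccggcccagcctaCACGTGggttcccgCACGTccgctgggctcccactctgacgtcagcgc
G6pdx: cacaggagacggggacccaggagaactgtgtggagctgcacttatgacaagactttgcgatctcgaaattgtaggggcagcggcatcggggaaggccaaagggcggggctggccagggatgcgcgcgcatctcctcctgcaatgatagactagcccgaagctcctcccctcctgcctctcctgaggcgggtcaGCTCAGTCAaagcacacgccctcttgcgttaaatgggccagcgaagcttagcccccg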

How the data were processed

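Per the labels, adherent thioglycolate-elicited macrophages were kept with IL-10 or left untreated, 1 library each, with library inserts of 188 bp under IL-10 and 197 bp without. TopHat, Cufflinks and the mm9 build are named, with no tool versions, per the submitters' processing notes. The authors deposited a raw count of reads per splice junction, per the file headers. Cufflinks output was not used here.

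Genes were named from GENCODE M21 (GRCm38). A junction took a gene where chromosome, strand and intron length were identical and 2 or more of that gene's introns lay at 1 offset of up to 20000000 bases. Of 131057 junctions, 106738 (81.4%) matched a gene and 105286 a single gene, which held 96.0% of reads with IL-10 and 95.9% without. mm9 coordinates are those of the deposited lists, and GRCm38 coordinates those of the references. Reads on introns of 1 gene were summed per gene. Ratios carry exact conditional binomial (Clopper-Pearson) 95% intervals, 0.5 reads were added for log2 ratios, and a floor of 3 reads per library stands for 0 in a fold. The rule for named genes was all 49 members, and of the neighbouring lists those past the call rule plus Hif1a, Slc2a1, Acod1 and Gapdh. Other genes were named after their values were seen, and 1 gene of the lists is not reported here. The members and lists were chosen with earlier results of these data known. Copied introns were found with BLAST 2.17.0 in GENCODE transcripts, after seeing the data. Alternatives were the total of all junction reads, the edgeR 4.0.16 TMM and DESeq2 1.42.0 size factors, other read minimums, folds, intervals and pseudocounts, an aligned length of at least 10 bases on each side, and other choices of introns. The procedure was tested on simulated data. The tools were pandas 2.3.3, scipy 1.17.1, numpy 2.4.6 and matplotlib 3.10.9 under Python 3.11.15, and R 4.3.3.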

Additional observations from a re-analysis of the deposited data

How the results depend on the processing

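Scaling by all junction reads, TMM or DESeq2 factors changed neither count of calls. The count of enzymes called higher was 1, and 2 on the most abundant intron alone or on copy-free introns, 3 with a fold of 5/4 and 0 with a fold of 2. The count called lower was 1, and 2 with no minimum of reads, 6 with a fold of 5/4, and 0 with a fold of 2 or on the most abundant intron alone. On the most abundant intron alone the summed ratio of all members was 1.17, the reverse of 0.975. Glycolysis then gave 1.43 with a median log2 ratio of 0.27, pyruvate dehydrogenase 1.06, the pentose phosphate genes 0.855, and citrate and malate export 1.27 with a median of 0.32. Copy-free introns, chosen after seeing the data like the other settings that follow, gave 0.996 for all members and 1.23 for glycolysis. Introns other than the most abundant gave 0.898 for all members and 0.947 for glycolysis, a reversal. Without introns at 0 in 1 library the pentose phosphate genes gave 0.843. The cause of these shifts was not tested. Of 426 values of single genes under alternatives, 397 moved by less than the counting interval and 29 by more. Many of the 397 could hardly move, so their number is no measure of robustness. The TMM factors were 0.9997 under IL-10 and 1.0003 without, and both DESeq2 factors were 1. For the 30 members without a copied intron, the copy-free setting changes nothing. Neither called gene changed direction, but 15 values of genes not called lay on the other side of 1 from the reported ratio, 10 of them on the most abundant intron alone. The difference in Pkm exon 10 share and the count of junction shares did not move past their limits, although junctions out of the exons, with 4 reads under IL-10 and 3 without, bound the difference only between -70.8 and 60.2 points. No paired analysis was possible because each group has 1 library, and for the same reason no library could be left out. Depth limits most the genes under 100 reads over both libraries, such as Pfkm and Aldoc.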

Other observations

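Outside the pathways summed above, glycogen enzymes showed both directions. Gys1, glycogen synthase, had 116 reads under IL-10 and 86 without (1.36, 1.02 to 1.82), and Pygl, a glycogen phosphorylase, had 497 under IL-10 and 593 without (0.844, 0.748 to 0.953). Pdk2, a kinase of pyruvate dehydrogenase, had 93 under IL-10 and 139 without (0.674, 0.513 to 0.883). None of these 3 passed the call rule.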
